A study of Mus musculus with 6 samples.

Results

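The genes described here build, fill and acidify the lysosome: subunits of the vacuolar H+-ATPase (V-ATPase), lysosomal hydrolases with their activator proteins, lysosomal membrane proteins, and the MiT/TFE transcription factors. The V-ATPase genes were all those whose symbol begins with Atp6v or Atp6ap, and the other 26 were taken from a list of symbols. Together they were 49 of the 17067 genes in the tables: 13 genes of the V1 sector of the pump, 8 of its V0 sector and 2 accessory genes, 16 hydrolases, 2 activators, 5 membrane proteins and 3 MiT/TFE factors. RNA was sequenced from macrophages sorted from the colon by the surface proteins CD45, CD11b and F4/80. All mice were C57BL/6, 10 weeks old, and had colitis caused by dextran sulfate sodium (DSS), which injures the colon lining. There were 3 wild-type (WT) samples and 3 Gsdmd-/- samples, from mice with the gene of gasdermin D knocked out, the protein that forms the membrane pores of pyroptosis. Mice without colitis were not part of the comparison. The labels do not describe the Gsdmd allele further and leave unsaid whether each sample is its own mouse, so a p-value here weighs a difference only against the spread among these samples, part or all of which may be technical.

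As background, the V-ATPase is a rotary proton pump. Its V1 sector on the cytosolic side splits ATP and turns a stalk, and its V0 sector in the membrane carries protons into the lysosome. The acid interior serves hydrolases that break down sphingolipids, glycosaminoglycans, glycoproteins, glycogen, lipids and proteins, and saposins present some of the lipids to them. LAMP proteins coat the inner face of the lysosomal membrane. TFEB, TFE3 and MITF can enter the nucleus and bind the CLEAR element, a short DNA motif found before many lysosomal genes. In macrophages the lysosome digests engulfed cells and microbes.

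Levels are given in FPKM, fragments scaled by transcript length and by library size. A change is the mean of log2(FPKM + 1) in Gsdmd-/- minus that in WT samples, which understates changes of low genes, and "rose" or "fell" means an adjusted p under 0.05 by limma over all 10005 genes that reached 1 FPKM in at least 3 samples. Depth, judged from the steps between low values, was nearly equal between groups: 18.95 to 19.45 M fragments in WT and 19.1 to 19.3 M in Gsdmd-/- libraries on full transcript length, and 23.25 to 24.6 and 23.7 to 25.3 M where 200 bases are taken off each transcript. Gsdmd was 97.7, 99.3 and 97.3 FPKM in WT against 28.5, 29.0 and 29.7 in Gsdmd-/- samples, lower in each of the latter (log2 change -1.72, limma adjusted p = 1.12e-11). All 10 macrophage markers were above 1 FPKM; 4 of them rose and 5 fell, and their sum, most of it Lyz2 and C1qb, was 8287 to 8825 FPKM in WT against 9631 to 9754 FPKM in the other group. The genes of the surface proteins used for the sort all fell, Ptprc (CD45) to 0.626, Itgam (CD11b) to 0.517 and Adgre1 (F4/80) to 0.742 of the WT mean, and each kept that call in all 17 other ways of processing. Among markers of other cells, 5 of 7 fibroblast genes were at 1 FPKM or more and all 5 rose (sum 19.2 to 20.8 against 48.9 to 50.9 FPKM). Of the 5, Col3a1, at 0.54 to 0.73 FPKM in WT, entered the test only through the Gsdmd-/- samples, so its rise was bound to be found. The 4 endothelial genes summed to 62.5 to 66.6 against 33.0 to 38.4 FPKM. Of these, Kdr alone fell (56.4 ± 1.59 to 26.2 ± 2.3 FPKM), Cdh5 and Vwf passed in neither direction, and Pecam1, too low to test, was higher in each Gsdmd-/- sample (at most 0.38 FPKM in WT). Markers of neutrophils, monocytes and dendritic cells each summed to 7.86 to 35.4 FPKM in WT and 10.7 to 44.5 in Gsdmd-/- samples. Those of T and NK cells, B cells, mast cells, eosinophils and epithelium summed to at most 5.31 FPKM in any sample. No marker that had a value was at 0 in all samples. Only 9 of 10 neutrophil, 3 of 4 eosinophil, 6 of 7 T and NK cell and 5 of 7 epithelial markers had one, and Elane, Epx, Trbc2, Epcam and Krt18 did not. The part of these cells in the results below was not tested. In bulk RNA, fewer cells of a type and less RNA per cell cannot be told apart.

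Of the 49 genes, 44 could be tested, and 21 rose, 16 fell and 7 passed in neither direction. That is 84.1% called, beside 77.5% of all tested genes (40.6% rose and 36.9% fell), so being called was common among all genes. Atp6v1g2, among the 21, entered the test only through the Gsdmd-/- samples. The groups did not overlap for 38 of the 44, 22 higher and 16 lower in every Gsdmd-/- sample, beside 79.4% of all tested genes (41.2% higher and 38.3% lower). The median change was 0.06 over the members and 0.03 over all tested genes. The changes ran from -1.3 to 0.66, beside -3.8 to 3.2 over all tested genes, and the median size of a change was 0.22 beside 0.33. Members thus moved in both directions, no more widely than genes at large. V0 subunits were mostly higher on the deposited values, and the catalytic V1 subunit and both LAMP genes were lower. Both sphingolipid and glycosaminoglycan enzymes held genes that rose and genes that fell.

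The scale of the values bears on every small change below. Across all 9852 tested genes with a known transcript, the change fell with transcript length (Spearman rho across genes -0.655) and rose with GC content (0.5), and 51.3% of the variance of the changes lay on a smooth curve of these properties. Genes are not independent replicates, and these correlations are descriptions. Removing that trend left 60.2% of genes called (29.8% rose and 30.3% fell). Values without the trend rest on the longest curated transcript of a gene, unless a median transcript length is named. With a median length over the coding transcripts of each gene, 67.3% were called (35.5% rose and 31.8% fell). The values of all genes summed to 476271 to 485411 in WT and 551502 to 565388 in Gsdmd-/- samples, which bears on each sum of a group above and below. Rescaling each sample to TPM, which makes all samples sum to the same total, moved the median change of all genes from 0.03 to -0.17 (76.0% called, 25.0% rose and 51.0% fell). Directions that turn in TPM or without the trend are given with the gene. Those that turn under quantile normalization are Atp6v0a1 (-0.13), Gm2a (-0.05), Hexa (-0.09), Lgmn (-0.26) and Man2b1 (-0.02), all from above 0 to below it.

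Most V-ATPase subunits of the membrane sector were higher in Gsdmd-/- macrophages on the deposited values, and fewer without the length and GC trend. Of 7 tested V0 genes, 5 rose, Atp6v0a2 fell and Atp6v0d2 passed in neither direction, with a median change of 0.34. Among all tested genes 40.6% rose and 36.9% fell. The summed level of the V0 genes was 2319 to 2460 FPKM in WT against 2901 to 3042 in Gsdmd-/- samples, in which the sum of all genes was higher too. Removing the length and GC trend turned Atp6v0b and Atp6v0c to falls, and left Atp6v0d1 and Atp6v0e past the threshold in neither direction. Where the trend used a median transcript length, Atp6v0d1 (0.19) and Atp6v0e (0.30) still rose. Atp6v0b (-0.01) then passed in neither direction, and Atp6v0c (-0.09) was called lower.

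Atp6v0c encodes the proteolipid c, the most copied subunit of the rotating ring that carries the protons. It was the highest V-ATPase transcript, at 1396, 1508 and 1422 FPKM in WT against 1867, 1839 and 1777 in Gsdmd-/- samples. Every Gsdmd-/- sample lay above every WT sample (log2 change 0.34, SE 0.0309, limma adjusted p = 8.58e-07), but the change was -0.17 (adjusted p = 3.21e-05) once the trend was removed. Atp6v0b, the related ring subunit, was 239, 246 and 240.4 FPKM in WT against 328, 335 and 309 in Gsdmd-/- samples. The groups stood apart in the same way (log2 change 0.42, limma adjusted p = 1.86e-07), and the sign again turned without the trend (-0.14, adjusted p = 0.000197). Atp6v0e, a small subunit of the membrane sector, was 238, 247 and 242 FPKM in WT against 342, 345 and 324 in Gsdmd-/- samples. Its rise of 0.47 (SE 0.0302, limma adjusted p = 4.43e-08) was the largest in the sector, and 0.02 (adjusted p = 0.499) was left without the trend.

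**Figure D1:**
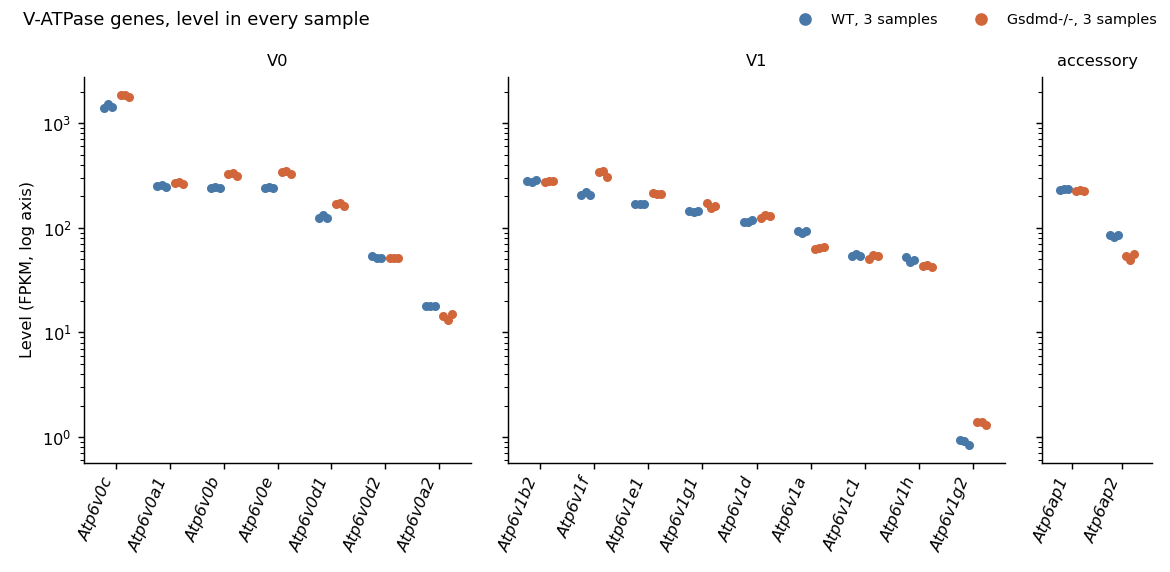
Level of each tested V-ATPase gene in every sample (FPKM, log axis), WT and Gsdmd-/- samples as points side by side, genes grouped by sector. Atp6v0c stands highest at 1396 to 1867 FPKM, Atp6v1f, Atp6v0e, Atp6v0b and Atp6v0d1 separate upward in Gsdmd-/- samples, and Atp6ap2 and Atp6v1a separate downward; without the length and GC trend Atp6v0b and Atp6v0c are lower instead.

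The a and d subunits come in alternative forms encoded by separate genes, and in both the makeup of WT and Gsdmd-/- samples did not overlap on the deposited values, though the direction for the d forms turned without the length and GC trend. Subunit d joins the stalk to the ring. Atp6v0d1 was 124, 132 and 125 FPKM in WT against 169, 173 and 162 in Gsdmd-/- samples, and rose by 0.40 (SE 0.0342, limma adjusted p = 5.45e-07; 0.06 and adjusted p = 0.0743 without the trend). Atp6v0d2, a form known from osteoclasts and macrophages, was 53.3, 51.1 and 51.4 FPKM in WT against 51.8, 51.6 and 51.0 in Gsdmd-/- samples, and the groups overlapped (-0.01, limma adjusted p = 0.746). Its change was -0.23 in TPM and 0.16 (adjusted p = 0.000429) without the trend, so its direction rests on the scale. Within the pair, the share of Atp6v0d2 was 30.0%, 27.9% and 29.1% in WT and 23.5%, 23.0% and 23.9% in Gsdmd-/- samples. Such shares are the same in FPKM and TPM, but the direction turned without the length and GC trend: Atp6v0d2, which has the longer transcript (2539 against 1629 bases), then held 26.0%, 24.9% and 25.4% in WT against 26.8%, 26.7% and 27.1% in Gsdmd-/- samples.

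Subunit a forms the paths by which protons enter and leave the ring and directs the pump to its membrane. Atp6v0a1 was 249.6, 257 and 243 FPKM in WT against 270, 275 and 262 in Gsdmd-/- samples, a rise of 0.11 (limma adjusted p = 0.00673) that was 0.16 without the trend and -0.12 in TPM. Atp6v0a2 was 17.9, 17.8 and 17.8 FPKM in WT against 14.2, 13.2 and 15.0 in Gsdmd-/- samples, a fall of 0.32 (SE 0.0502, limma adjusted p = 0.000105) that came to -0.05 (adjusted p = 0.305) without the trend and 0.02 where the trend used a median transcript length. Tcirg1, the a3 form of lysosomes and osteoclasts, lies outside the symbol rule and is named after its values were seen. It was 226, 236 and 223 FPKM in WT against 315, 308 and 319.6 in Gsdmd-/- samples, and its rise of 0.46 (limma adjusted p = 4.58e-08; 0.27 without the trend) stayed past the threshold in all 17 other ways of processing. Of the summed a-subunit level, Tcirg1 held 46.0% ± 0.205 in WT and 52.6% ± 0.946 in Gsdmd-/- samples (SD, n = 3 each). Atp6v0a1 held 50.4% ± 0.187 and 45.0% ± 1.09, so the form with the larger share was Atp6v0a1 in each WT sample and Tcirg1 in each Gsdmd-/- sample. Without the trend the difference was smaller: Tcirg1 held 48.2% ± 0.307 in WT and 50.4% ± 1.22 in Gsdmd-/- samples, and was the larger share in 1 WT sample too (48.5% against 48.3%). No test was run on the shares.

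**Figure D2:**
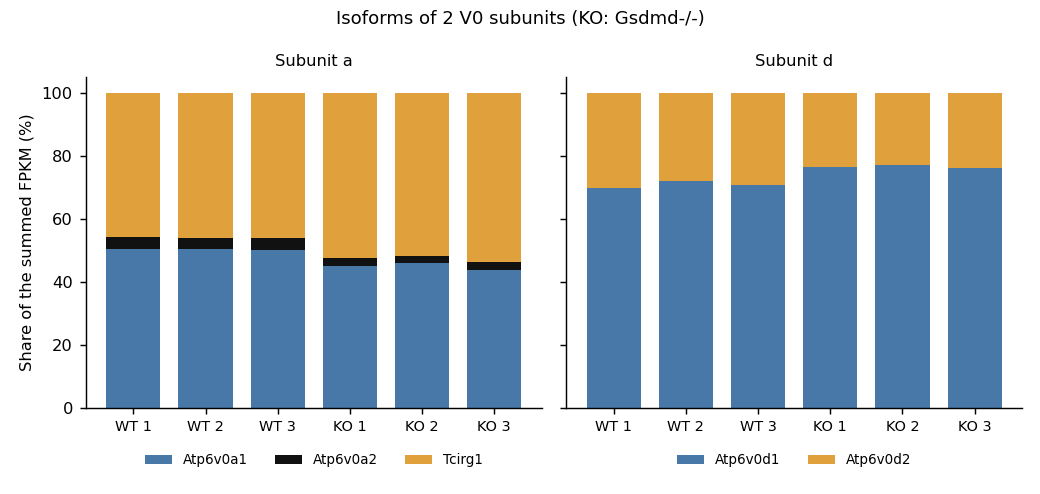
Share of each form (percent of the family's summed FPKM, y axis) in the 3 WT and 3 Gsdmd-/- samples, as stacked bars for the a and d subunits of V0. Tcirg1 takes 46.0% on average in WT and 52.6% in Gsdmd-/- samples, and Atp6v0d2 29.0% and 23.5%; without the length and GC trend, not drawn, Tcirg1 takes 48.2% and 50.4%, and Atp6v0d2 turns to 25.4% and 26.9%.

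In the V1 sector, which splits ATP, the catalytic subunit fell. Most parts of the stalks rose on the deposited values, but without the length and GC trend of the longest transcript only Atp6v1d did. Where the trend used a median transcript length, Atp6v1f (0.28), Atp6v1e1 (0.17) and Atp6v1g1 (0.09) were called higher too. Atp6v1g2 (-0.12) then passed in neither direction, and Atp6v1c1 (-0.32) was called lower. Of 9 tested V1 genes, 5 rose and 2 fell, beside 40.6% and 36.9% of all tested genes. Atp6v1b2 and Atp6v1c1 passed in neither direction, and the median was 0.16. Atp6v1g2, among the 5, entered the test only through the Gsdmd-/- samples. The sum of the sector was 1109 to 1120 FPKM in WT against 1252 to 1288 in Gsdmd-/- samples, in which the sum of all genes was higher too. Over both sectors and the accessory genes, 10 of 18 rose, Atp6v1g2 among them, and 4 fell (median 0.13). Without the trend 3 rose and 7 fell, and in TPM 7 rose and 9 fell. Where the trend used a median transcript length, 9 rose and 5 fell, so these counts rest on the length taken.

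Atp6v1a, the catalytic subunit A that binds ATP, was 92.8, 89.8 and 93.1 FPKM in WT against 62.0, 64.2 and 65.6 in Gsdmd-/- samples. Every Gsdmd-/- sample was lower (log2 change -0.52, SE 0.0329, limma adjusted p = 4.42e-08), at 0.696 of the WT mean, and a fall of -0.19 (adjusted p = 0.000114) was left without the trend. Atp6v1b2, the B subunit that forms the same ring with A, was 280.1, 275 and 285 FPKM in WT against 273, 278 and 282 in Gsdmd-/- samples. Its groups overlapped (-0.01, limma adjusted p = 0.683), so the level of A relative to B was lower in every Gsdmd-/- sample. Atp6v1h, a regulatory subunit, was 52.2, 46.9 and 49.4 FPKM in WT against 43.4, 44.3 and 42.3 in Gsdmd-/- samples, a fall of 0.19 (limma adjusted p = 0.0015) that was -0.15 without the trend. Atp6v1c1, which holds the sectors together, overlapped between groups at 53.6, 56.1 and 53.7 against 50.5, 55.3 and 53.2 FPKM (-0.04, limma adjusted p = 0.385).

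Subunits D and F form the turning axle. Atp6v1f was 205, 219 and 205 FPKM in WT against 344, 347 and 308 in Gsdmd-/- samples, 1.59 times the WT mean. That was the largest rise of all 44 tested members (log2 change 0.66, SE 0.046, limma adjusted p = 1.68e-07), and 0.04 (adjusted p = 0.266) was left without the trend. Its transcript is also the shortest among the tested V-ATPase genes, at 703 bases. Atp6v1d, its partner, was 113, 114 and 119 FPKM in WT against 125, 132 and 129 in Gsdmd-/- samples, and rose by 0.16 (SE 0.0323, limma adjusted p = 0.000754). For Atp6v1d, whose transcript is 3667 bases long, removal of the trend gave a larger value, 0.47 (adjusted p = 6.25e-07), while TPM gave -0.06.

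Subunits E and G form the fixed stalks. Atp6v1e1 was 168, 169 and 169.7 FPKM in WT against 214, 208 and 208 in Gsdmd-/- samples, apart in every sample (log2 change 0.31, SE 0.0262, limma adjusted p = 4.11e-07; 0.03 and adjusted p = 0.298 without the trend). Atp6v1g1 was 143, 140.5 and 145 FPKM in WT against 170.4, 156 and 163 in Gsdmd-/- samples, a rise of 0.19 (limma adjusted p = 0.000229) that turned to -0.11 (adjusted p = 0.0138) without the trend and to -0.03 in TPM. Atp6v1g2, a form known from neurons, was 0.94, 0.92 and 0.84 FPKM in WT against 1.4, 1.39 and 1.3 in Gsdmd-/- samples. It entered the test only through the Gsdmd-/- samples, so a higher value there was bound to be found, its change of 0.31 turned to -0.03 (adjusted p = 0.703) without the trend, and it made up 0.627% of the G forms in WT and 0.829% in Gsdmd-/- samples. The remaining 5 genes were too low to test in either group: Atp6v0e2 reached at most 0.18 FPKM, Atp6v1e2 0.1, Atp6v1c2 0.07, and Atp6v1g3 0.03, and Atp6v1fnb, a neighbour of Atp6v1f in the genome and not a pump subunit, 0.08 FPKM.

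The accessory genes parted. Atp6ap2, which encodes the prorenin receptor and helps assemble the pump, was 85.6, 81.9 and 85.7 FPKM in WT against 53.7, 49.5 and 56.0 in Gsdmd-/- samples. This was the largest fall among V-ATPase genes, to 0.629 of the WT mean (log2 change -0.66, SE 0.0437, limma adjusted p = 5.96e-08), and it was -0.49 (adjusted p = 1.53e-06) without the trend. Atp6ap1, its partner in assembly, was 227, 232 and 232 FPKM in WT against 225, 230.3 and 225 in Gsdmd-/- samples, with overlapping groups (-0.02, limma adjusted p = 0.444; -0.18 and adjusted p = 2.3e-05 without the trend).

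The order of the V-ATPase changes followed the length of the transcripts. The 8 shortest tested transcripts, from Atp6v1f at 703 to Atp6v0d1 at 1629 bases, all belonged to genes that rose. Among them the rise of Atp6v1g2 was fixed by the filter and adds nothing to this order. The longest, those of Atp6v1a (4234 bases) and Atp6v0a2 (5345 bases), belonged to genes that fell, while Atp6v1d (3667 bases) and Atp6v0a1 (4008 bases) rose in spite of their length. Across the 18 tested V-ATPase genes Spearman's rho of the change was -0.783 against length and 0.651 against GC content, across the 18 hydrolases and activators -0.655 and 0.765, and across all 44 members -0.695 and 0.628, as a description across genes that share the same 6 libraries. Of the members no longer than 2939 bases, the median of tested genes, 17 of 27 rose and 4 fell, beside 63.8% and 14.6% of all such genes. Of those over it, 4 of 17 rose and 12 fell, beside 17.3% and 59.4%. The members' shares were thus near those of all genes in both classes, and no test was run on them. With 17 members in the longer class, a few genes make up the difference.

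**Figure D3:**
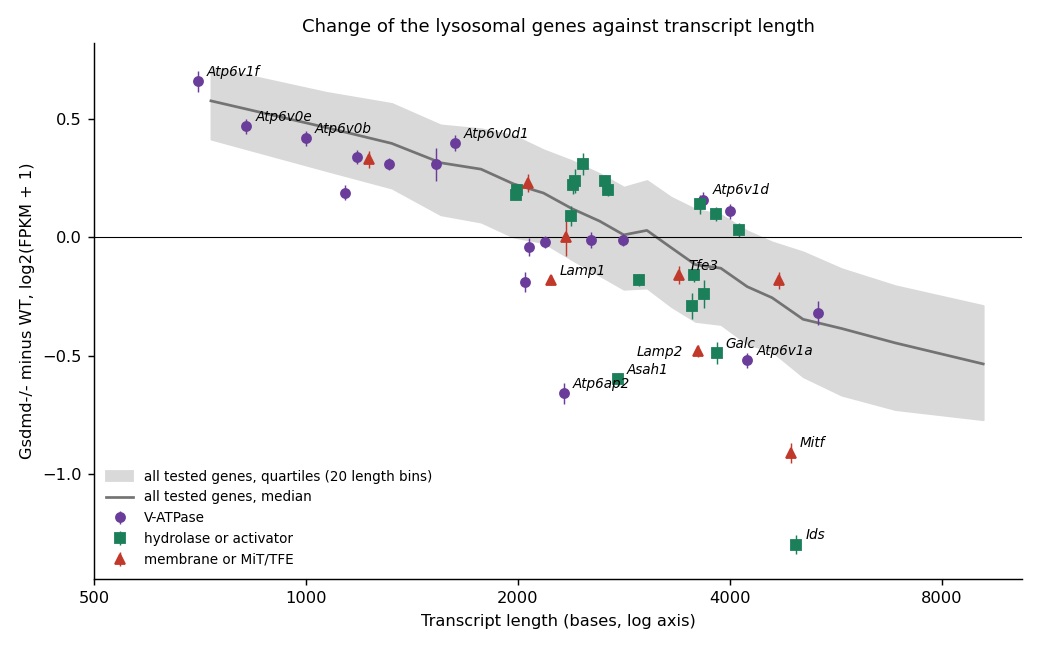
Log2 change (Gsdmd-/- minus WT, y axis) against transcript length in bases (log x axis), with the members coloured by group and a grey band for the quartiles of all tested genes by length; bars show the standard error of the fit. Changes fall from left to right for the members (Spearman rho -0.695, n = 44) as for all genes (-0.655, n = 9852); Ids, Mitf and Atp6ap2 lie lowest among the members.

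Some members carry the core of the CLEAR element close to their start. The motif TCACGTG, searched on both strands from 250 bases before to 50 bases after each start in RefSeq promoters of GRCm38.p6, contains the shorter E-box letters CACGTG. It was found for 9 of the 42 members with a promoter in that set (21.4%), beside 4.29% of 27025 genes with a promoter and 6.06% of the 13375 of them that are in the tables. Of the 9, 7 rose (Atp6v0b, Atp6v0d1, Atp6v0e, Gaa, Glb1, Lgmn and Mcoln1) and 2 fell (Atp6v1a and Lamp1) on the deposited values, beside 40.6% and 36.9% of all tested genes. Without the trend none of the 7 was called higher and Atp6v0b was called lower, while Atp6v1a and Lamp1 still fell. Atp6v0b, Lgmn and Mcoln1 were then below WT, and Gaa, Glb1 and Lgmn were below it in TPM. Where the trend used a median transcript length, Atp6v0d1 (0.19), Atp6v0e (0.30), Glb1 (0.15) and Lgmn (0.11) were called higher. Gaa (-0.30), Mcoln1 (-0.13), Atp6v1a (-0.68) and Lamp1 (-0.21) were then called lower, and Atp6v0b (-0.01) passed in neither direction. A match describes the letters only. The matches of the 4 V-ATPase genes and of the 2 membrane genes are printed because genes with the same letters near the start moved in opposite directions on the deposited values. Capitals mark the motif, and TCACGTGA reads as a match on both strands.
Atp6v0b, chr4:117887330-117887380, minus strand: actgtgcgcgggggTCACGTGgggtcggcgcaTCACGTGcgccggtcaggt
Atp6v0d1, chr8:105566050-105566079, minus strand: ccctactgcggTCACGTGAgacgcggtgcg
Atp6v0e, chr17:26676387-26676416, plus strand: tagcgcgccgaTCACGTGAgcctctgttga
Atp6v1a, chr16:44139370-44139405, minus strand: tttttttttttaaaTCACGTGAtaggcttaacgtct
Lamp1, chr8:13159085-13159160, plus strand: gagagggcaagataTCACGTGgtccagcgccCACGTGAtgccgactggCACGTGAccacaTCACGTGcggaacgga
Mcoln1, chr8:3500433-3500494, plus strand: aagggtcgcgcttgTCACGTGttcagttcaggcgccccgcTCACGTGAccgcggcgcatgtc
The Lamp1 stretch holds 4 separate matches between 62 and 10 bases before the start, more than that of any other member, and Lamp1 fell. In Atp6v0d1 the match spans the start, from 4 bases before it to 4 after, and in Atp6v0e it lies 3 to 10 bases after the start. Both genes rose on the deposited values and where the trend used a median transcript length, and passed in neither direction without the trend of the longest transcript. In Atp6v1a it lies 132 to 125 bases before the start in the promoter set, which is inside the annotated gene (chromosome 16, 44085402 to 44139702, minus strand) and not at its outermost end, and that gene fell.

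The hydrolases did not move as one class. Of 16 tested, 8 rose and 7 fell, beside 40.6% and 36.9% of all tested genes. Ppt1 passed in neither direction, and of the 2 activators Psap rose. The rises were small, up to 0.31, while the falls reached -1.3. The 16 hydrolases summed to 2043 to 2082 FPKM in WT against 2131 to 2143 in Gsdmd-/- samples, in which the sum of all genes was higher too. In TPM none of the 18 hydrolases and activators rose and 10 fell, and without the trend 5 rose and 5 fell. Where the trend used a median transcript length, 9 rose and 5 fell.

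Among enzymes of glycosaminoglycan breakdown, Ids stood apart. Ids encodes iduronate sulfatase, which starts the removal of iduronate units from heparan and dermatan sulfate. It lies on chromosome X from 70343069 to 70385834 (GRCm38.p6) and was 31.1, 30.6 and 30.3 FPKM in WT against 11.7, 11.8 and 12.2 in Gsdmd-/- samples. This was the largest change of the 44 tested members, to 0.388 of the WT mean (log2 change -1.3, SE 0.0408, limma adjusted p = 5.04e-10), and -0.8 (adjusted p = 4.55e-08) was left without the trend on its 4972 bases. Idua, the iduronidase that acts after it, was 16.5, 17.7 and 18.4 FPKM in WT against 14.5, 14.7 and 13.2 in Gsdmd-/- samples, also lower in each (log2 change -0.29, limma adjusted p = 0.000383). Gusb, the beta-glucuronidase of the same pathway, was 190.2, 197 and 196 FPKM in WT against 222, 225 and 224 in Gsdmd-/- samples, a rise of 0.20 (limma adjusted p = 2.12e-05; 0.10 without the trend) that was -0.02 in TPM. Idua overlaps Slc26a1 over 8503 bp and Dgkq over 500 bp, and since no source used here says whether counting was by strand, its value is uncertain.

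Enzymes of sphingolipid breakdown moved both ways. Asah1, acid ceramidase, which splits ceramide into sphingosine and a fatty acid, was 140, 144 and 144 FPKM in WT against 93.5, 93.6 and 94.7 in Gsdmd-/- samples. It fell to 0.659 of the WT mean (log2 change -0.60, SE 0.0276, limma adjusted p = 4.34e-09; -0.44 without the trend), and its locus overlaps Frg1 over 8464 bp. Galc, which removes galactose from galactosylceramide, was 16.2, 15.7 and 17.0 FPKM in WT against 11.2, 11.3 and 11.3 in Gsdmd-/- samples, lower in each (log2 change -0.49, SE 0.0466, limma adjusted p = 1.33e-06; -0.27 without the trend). Smpd1, acid sphingomyelinase, which makes the ceramide that Asah1 splits, was 11.0, 9.9 and 10.4 FPKM in WT against 12.7, 12.5 and 12.3 in Gsdmd-/- samples. Its rise of 0.24 (limma adjusted p = 0.000863) set it opposite to Asah1, but 0.01 was left without the trend.

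The ganglioside enzymes were slightly higher on the deposited values. Glb1, the lysosomal beta-galactosidase, was 46.3, 48.0 and 45.5 FPKM in WT against 54.5, 54.8 and 53.6 in Gsdmd-/- samples, a rise of 0.22 (limma adjusted p = 9.51e-05) that came to -0.0022 in TPM; its locus contains Tmppe. Hexa, the alpha chain of beta-hexosaminidase, ranged between 395 and 405 FPKM in WT against 456 to 463 in Gsdmd-/- samples, a rise of 0.20 (limma adjusted p = 8.5e-06) that turned to -0.10 (adjusted p = 0.00107) without the trend and -0.02 in TPM. Gm2a, the activator that lifts the ganglioside GM2 out of the membrane for beta-hexosaminidase, was 68.1, 69.4 and 68.3 FPKM in WT against 70.3, 70.2 and 69.6 in Gsdmd-/- samples. The samples did not overlap, yet the difference of 0.03 was within what the test allows (limma adjusted p = 0.382); it was -0.19 in TPM and 0.24 (adjusted p = 2.81e-05) without the trend. Psap, the precursor of the saposins that help sphingolipid hydrolases, had the highest level of all members, at 2381, 2463 and 2349 FPKM in WT against 2831, 2791 and 2863 in Gsdmd-/- samples. Psap was higher in each Gsdmd-/- sample (log2 change 0.24, SE 0.0238, limma adjusted p = 1.98e-06), with 0.07 (adjusted p = 0.00713) left without the trend and 0.02 in TPM.

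Neu1, the sialidase that trims sialic acid from glycoproteins and gangliosides, was 18.0, 18.7 and 17.0 FPKM in WT against 21.8, 22.8 and 22.9 in Gsdmd-/- samples. At 0.31 its rise was the largest of a hydrolase (SE 0.047, limma adjusted p = 6.36e-05), with 0.06 (adjusted p = 0.222) left without the trend. The mannosidases parted: Man2b1 (alpha) rose by 0.10, with 145 ± 3.76 FPKM in WT and 155 ± 1.9 in Gsdmd-/- samples (SD, n = 3 each; limma adjusted p = 0.00891; -0.12 in TPM), and Manba (beta) fell from 9.08 ± 0.312 to 7.56 ± 0.499 FPKM (-0.24, limma adjusted p = 0.00266; -0.08 without the trend, and 0.05 by median length). Gaa, which releases glucose from glycogen, rose by 0.14 (30.1 to 32.5 FPKM in WT, 33.4 to 35.0 in Gsdmd-/- samples; -0.08 in TPM and -0.30 where the trend used a median transcript length). Lipa, the acid lipase that frees cholesterol and fatty acids from engulfed lipoproteins, was 261, 261 and 267 FPKM in WT against 229.7, 236 and 228 in Gsdmd-/- samples, lower in each (log2 change -0.18, SE 0.0263, limma adjusted p = 4.27e-05; -0.05 without the trend, and 0.10 where the trend used a median transcript length).

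Of the proteases and the thioesterase, Lgmn, an asparaginyl endopeptidase that processes antigens and cathepsins, was 582 to 594 FPKM in WT against 661 to 669 in Gsdmd-/- samples. Lgmn rose by 0.18 (limma adjusted p = 1.58e-05), which turned to -0.03 without the trend and -0.04 in TPM. Tpp1, a tripeptidyl peptidase, was 111 to 112 FPKM in WT against 98.7 to 101 in Gsdmd-/- samples, a fall of 0.16 (limma adjusted p = 0.000267) that turned to 0.03 without the trend. Ppt1, which removes palmitate from proteins, overlapped between groups at 34.9 to 37.7 and 36.8 to 39.5 FPKM (0.09, limma adjusted p = 0.0768; 0.14 and adjusted p = 0.0113 without the trend; -0.13 in TPM). Its limma adjusted p was 0.0317 without the second WT sample and 0.0378 without the first Gsdmd-/- sample, so its call rests on single samples.

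**Figure D4:**
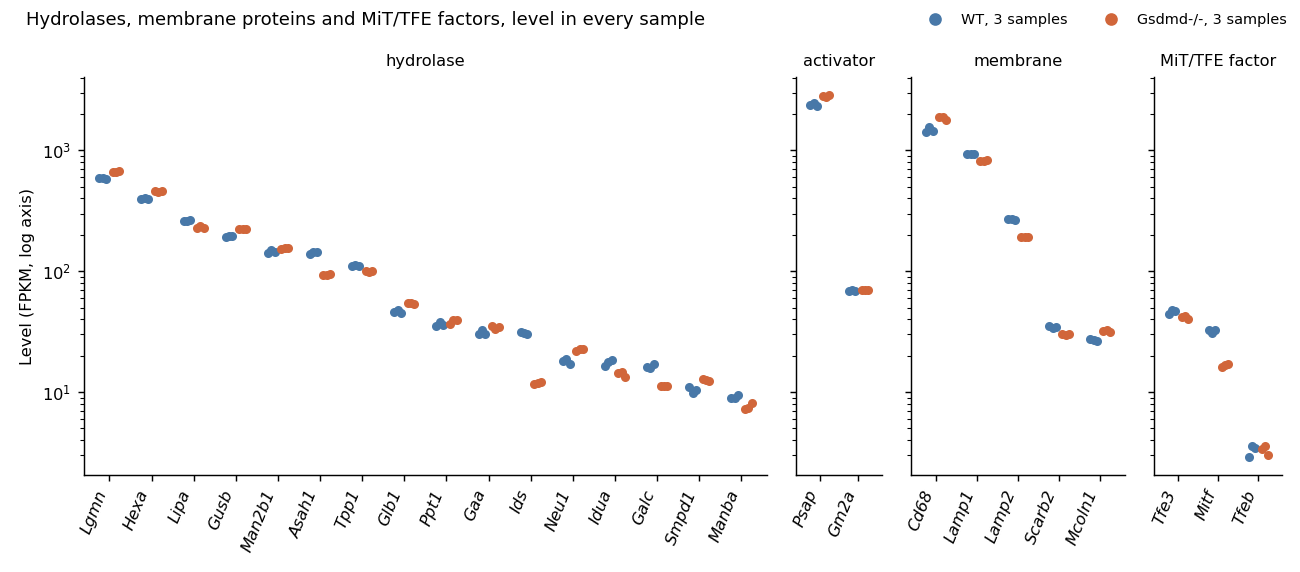
Level of each hydrolase, activator, membrane protein and MiT/TFE gene in every sample (FPKM, log axis), WT and Gsdmd-/- samples as points side by side. Ids (30.3 to 31.1 against 11.7 to 12.2 FPKM) and Mitf (30.8 to 32.7 against 16.1 to 16.9 FPKM) show the widest gaps, and Psap stands highest; Tfeb lies lowest, near 3 FPKM, with overlapping groups and a change of -0.34 without the length and GC trend.

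All 5 membrane proteins passed the test, beside 77.5% of all tested genes, with both LAMP genes lower. Lamp1, the most abundant glycoprotein of the lysosomal membrane, was 935, 925 and 939 FPKM in WT against 823, 820 and 827 in Gsdmd-/- samples. It was lower in each Gsdmd-/- sample (log2 change -0.18, SE 0.0218, limma adjusted p = 1.04e-05), and the fall was larger without the trend, at -0.34 (adjusted p = 7.26e-08). Lamp2, which also serves chaperone-mediated autophagy and fusion with autophagosomes, was 271, 269 and 264 FPKM in WT against 192, 190.3 and 193 in Gsdmd-/- samples. It fell to 0.715 of the WT mean (log2 change -0.48, SE 0.0253, limma adjusted p = 1.03e-08), with -0.07 (adjusted p = 0.0276) left without the trend on its 3604 bases. So Lamp2 fell more on the deposited values, and Lamp1 without the trend of the longest transcript. Lamp2 also fell more in TPM (-0.70 against -0.40) and by median ratio scaling (-0.52 against -0.22). It fell slightly more after quantile normalization (-0.67 against -0.62) and where the trend used a median transcript length (-0.23 against -0.21).

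Scarb2, a membrane protein of late endosomes and lysosomes, was 35.1, 33.7 and 34.4 FPKM in WT against 30.5, 29.9 and 30.3 in Gsdmd-/- samples, a fall of 0.18 (limma adjusted p = 0.000629) that turned to 0.16 (adjusted p = 0.0013) without the trend. Cd68, a LAMP-family protein of macrophages, was 1410.1, 1562 and 1458 FPKM in WT against 1882, 1899.9 and 1792 in Gsdmd-/- samples. Its rise of 0.33 (SE 0.0367, limma adjusted p = 7.47e-06) ran against the fall of Lamp1 and Lamp2, and turned to -0.09 (adjusted p = 0.017) without the trend. Mcoln1, the calcium channel of the lysosome, was 27.7, 27.2 and 26.2 FPKM in WT against 31.7, 32.7 and 31.2 in Gsdmd-/- samples, higher in each (log2 change 0.23, limma adjusted p = 0.0002; -0.08 and adjusted p = 0.0726 without the trend).

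Of the MiT/TFE factors, Mitf and Tfe3 fell. Mitf lies on chromosome 6 from 97807002 to 98021360 (GRCm38.p6) and was 32.5, 30.8 and 32.7 FPKM in WT against 16.1, 16.7 and 16.9 in Gsdmd-/- samples. Each Gsdmd-/- sample stood at about the same lower level, 0.517 of the WT mean (log2 change -0.91, SE 0.0423, limma adjusted p = 4.5e-09), and a fall of -0.48 (adjusted p = 1.02e-06) was left without the trend. Tfe3 was 44.5, 47.3 and 47.2 FPKM in WT against 41.7, 42.2 and 40.2 in Gsdmd-/- samples, lower in each (log2 change -0.16, SE 0.038, limma adjusted p = 0.0023; -0.28 without the trend). Tfeb was 2.9, 3.58 and 3.42 FPKM in WT against 3.36, 3.56 and 2.99 in Gsdmd-/- samples. Its groups overlapped (0.0023, limma adjusted p = 0.981), while the value without the trend was -0.34 (adjusted p = 0.00155) and that in TPM -0.19. In WT samples Tfe3 was thus the highest of the 3 factors and Tfeb the lowest, and this order was the same in Gsdmd-/- samples. Tfec, the remaining gene of the family, is not among the members and is named after its values were seen; it was 63.4 to 68.4 FPKM in WT against 70.0 to 74.1 in Gsdmd-/- samples (0.13, limma adjusted p = 0.00752; 0.08 without the trend and -0.09 in TPM).

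Many calls depended on the scale. Of the 21 members that rose, none kept that call in all 5 rescalings (TPM, quantile normalization, median ratio scaling, and removal of the length and GC trend by either of 2 definitions of length), and 10 were called lower in at least 1 of them. Of the 16 that fell, 10 kept the call in each of the 17 other ways of processing: Atp6v1a, Atp6ap2, Asah1, Galc, Ids, Idua, Mitf, Tfe3, Lamp1 and Lamp2. Lipa, Tpp1 and Scarb2 were called higher in at least 1. Of all genes with a value on every scale, 33.6% of the 3994 that rose kept the call in all 5 rescalings and 52.6% of the 3644 that fell, so calls of falls were kept by more genes at large too; 12.5% and 11.3% had an opposite call in at least 1 alternative. No test was run on these shares. Over all 44, removal of the trend left 9 that rose and 18 that fell (median -0.05), and TPM 8 and 24 (median -0.16). Where the trend used a median transcript length, 19 rose and 16 fell (median 0.03).

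**Figure D5:**
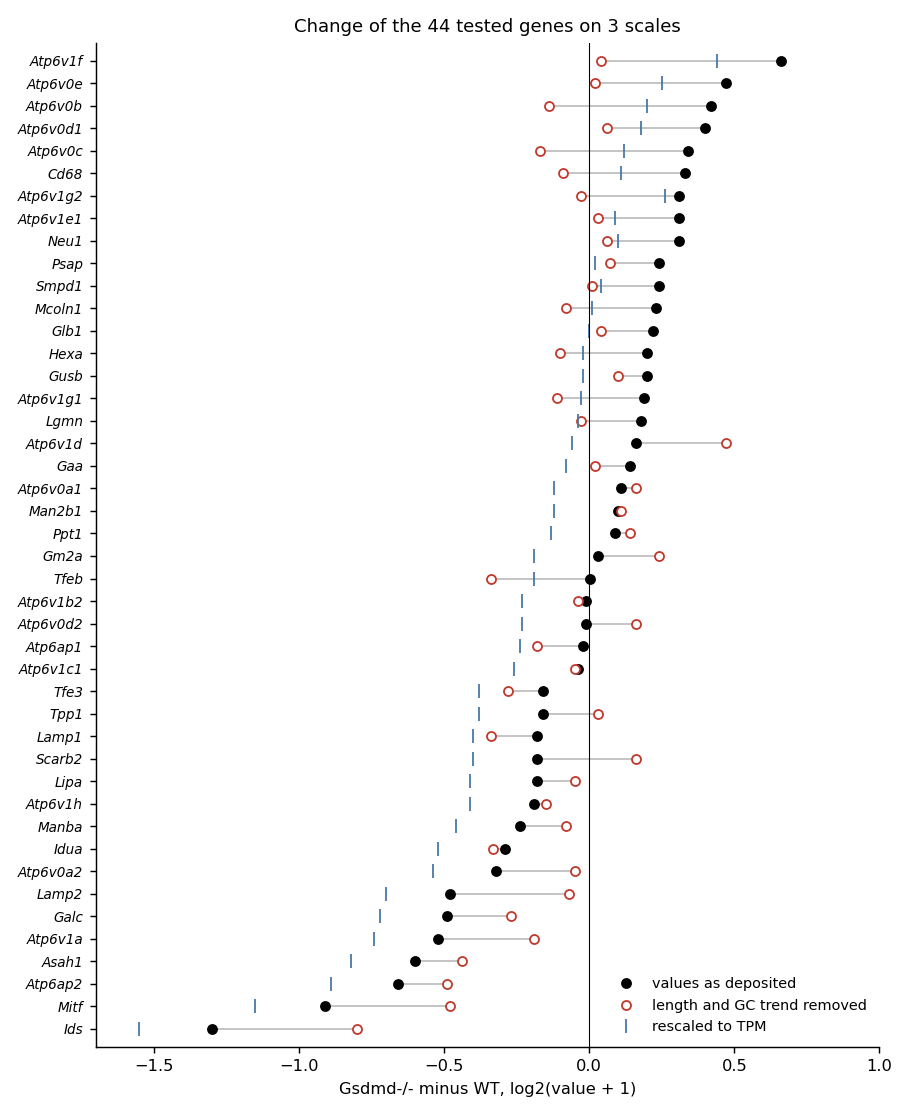
Log2 change (Gsdmd-/- minus WT, x axis) of each tested member on 3 scales (deposited values, TPM, and values freed of the length and GC trend), as a filled circle, a tick and an open circle, with a line at 0. Ids, Mitf, Atp6ap2 and Asah1 lie left of 0 on all 3 scales, while Atp6v0c, Atp6v0b and Cd68 cross from right to left without the trend and Scarb2 from left to right.

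Genes outside the symbol rule were grouped in 4 lists. Their counts stand beside 40.6% of all tested genes that rose and 36.9% that fell, and 29.8% and 30.3% without the trend. Of 24 other hydrolases and trafficking genes, 8 rose and 9 fell (median -0.02). Without the trend 6 rose and 12 fell, and 7 and 11 where the trend used a median transcript length. The largest falls were both in the mannose 6-phosphate route that sorts new hydrolases to the lysosome. Igf2r, its large receptor, fell by 0.89 from 24.1 ± 1.5 to 12.6 ± 1.04 FPKM (limma adjusted p = 9.98e-08), and Gnptab, which makes the mannose tag, fell by 0.83 from 41.4 ± 0.148 to 22.9 ± 0.817 FPKM (limma adjusted p = 4.43e-09). M6pr, the small receptor of the route, named after its values were seen, fell by 0.27 from 266 ± 2.33 to 221 ± 2.96 FPKM (limma adjusted p = 1.27e-06). Without the trend these 3 genes were still lower, at -0.48, -0.48 and -0.28. The route did not fall as a whole. Gnptg and Nagpa, also of this route and named after their values were seen, rose by 0.27 and 0.31 (limma adjusted p = 0.00139 and 2.36e-05). Without the trend they were -0.13 and -0.05, past the threshold in neither direction.

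Of 23 other membrane proteins 21 were tested, and 7 rose and 10 fell (median -0.06). Without the trend 4 rose and 11 fell, and 8 and 9 where the trend used a median transcript length. Cln3 rose by 0.50, from 62.2 ± 1.22 to 88.3 ± 4.22 FPKM, and Tmem192 by 0.35, which was -0.13 without the trend. Npc1, which exports cholesterol from the lysosome, fell by 0.46 from 49.1 ± 0.807 to 35.5 ± 0.824 FPKM, and was -0.18 without the trend.

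Of 12 further V-ATPase genes, 4 rose and 6 fell (median -0.16). Without the trend 2 rose and 4 fell, and 3 and 5 where the trend used a median transcript length. Rnasek, which binds the V0 sector, rose by 0.66 and Rogdi, a part of the RAVE-type complex that joins V1 to V0, by 0.59; without the trend they were -0.03 and 0.08. Dmxl1 and Wdr7, other parts of that complex, had the largest falls. Dmxl1 was 7.97, 7.52 and 7.74 FPKM in WT against 2.16, 2.02 and 2.19 in Gsdmd-/- samples (log2 change -1.49, limma adjusted p = 2.1e-09; -0.75 without the trend), and Wdr7 fell by 0.80 from 10.4 ± 0.295 to 5.56 ± 0.399 FPKM (-0.37 without the trend).

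Of 23 genes of nutrient signalling on the lysosome and of MiT/TFE control, 21 were tested, and 6 rose and 10 fell (median -0.08). Without the trend 3 rose and 12 fell, and 8 and 9 where the trend used a median transcript length. Lamtor4, a part of the Ragulator scaffold, rose by 0.81 from 22.5 ± 1.4 to 40.1 ± 2.35 FPKM, and Tbc1d7, a part of the TSC complex, by 0.66; 0.21 and 0.29 were left without the trend. Fnip1, which acts with folliculin on the Rag GTPases, fell by 1.11 from 12.2 ± 0.67 to 5.11 ± 0.255 FPKM. Ppp3cb, a catalytic subunit of calcineurin, the phosphatase that acts on TFEB, fell by 0.98 from 21.0 ± 0.721 to 10.2 ± 0.639 FPKM; without the trend the falls were -0.45 and -0.57. Gpnmb, a lysosomal glycoprotein gene that MiT/TFE factors can switch on, named after its values were seen, fell by 0.34 from 2835 ± 100 to 2236 ± 17.8 FPKM (limma adjusted p = 2.19e-07; -0.22 without the trend).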

How the data were processed

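RNA of sorted colon macrophages, 3 WT and 3 Gsdmd-/- samples, was sequenced on a BGISEQ-500, per the labels' protocols, and groups and replicate numbers come from the sample labels. The submitters' processing notes name Bowtie2 2.2.5 and the build GRCm38.p6; how alignments became gene values, with which annotation, strand setting or filter, is not given in the sources used here. Each deposited table holds 1 value per gene and names no unit. The deposited values were made by the authors and read as FPKM, fragments normalized for transcript length and library size, because the steps between low values grow shorter with longer transcripts and the sums differ, at 476271 to 485411 in WT and 551502 to 565388 in Gsdmd-/- samples. The depth of each library follows from those steps only up to the length taken as countable.

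Genes with at least 1 FPKM in 3 of 6 samples were tested with limma 3.58.1 in R 4.3.3 (trend and robust settings) on log2(FPKM + 1), Benjamini-Hochberg adjusted at 0.05. With 3 samples against 3, the smallest two-sided p of an exact permutation test is 0.1. Transcript length and GC content are those of the longest GENCODE M21 coding transcript with a curated RefSeq mRNA, found for 98.5% of tested genes; their trend was removed as natural splines with 5 degrees of freedom fitted to each sample. A median transcript length was used first and replaced after its values for some members were seen. The script was tested on simulated data.

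Members and lists were chosen with earlier results of these data known. Values in every sample are given for the 3 largest rises and falls of each group, for all V-ATPase isoform families above 1 FPKM and for the MiT/TFE factors, and for some others chosen after their values were seen; of each further list, the 2 largest rises and falls are named, except for some genes that are not reported here.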

Additional observations from a re-analysis of the deposited data

How the results depend on the processing

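The alternatives were a pseudocount of 0.1, no filter or 5 FPKM as filter, TPM, quantile normalization, median ratio scaling, the length and GC trend removed, limma without trend and robust, the replicate number as a block, and each sample left out. A further alternative was the trend with a median transcript length. That version was used first and was replaced by the longest transcript after values of some members were seen. It was then kept as an added alternative. Pseudocount, filters and limma settings turned no gene named here, and 0 of those tested crossed the threshold. Replicate numbers did not pair the samples (same-number correlations of deviations -0.0818, 0.132 and 0.0143), and not every sample correlated best with its own number. The replicate block changed no call of a named gene and gave 4095 genes that rose and 3706 that fell, beside 4059 and 3693. The cause of the shifts below was not tested.

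All tested genes that rose came to 2498 in TPM. V-ATPase genes that rose (10) came to 6 after quantile normalization, 3 without the trend and 4 without it under the block, and those that fell (4) to 9 in TPM, 9 after quantile normalization and 7 without the trend, with or without the block. Hydrolases and activators that rose (9) came to 0 in TPM, 4 after quantile normalization and 5 without the trend, with or without the block. Membrane proteins and MiT/TFE factors that rose (2) came to 1 in TPM, after quantile normalization and without the trend, with or without the block or by median length. In TPM, 0 hydrolases and activators passed upward by limma; by other scalings 4 to 9 did. Leaving out a sample gave 9 to 10 V-ATPase genes that rose and 4 that fell (Atp6v1g2 left the test without any 1 Gsdmd-/- sample), and 9 to 10 hydrolases and activators that rose and 7 that fell.

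The sign turned in TPM for Atp6v0a1 (-0.12), Atp6v1d (-0.06), Atp6v1g1 (-0.03), Gm2a (-0.19), Gaa (-0.08), Glb1 (-0.0022), Gusb (-0.02), Hexa (-0.02), Lgmn (-0.04), Man2b1 (-0.12), Ppt1 (-0.13), Tfeb (-0.19) and Tfec (-0.09). After quantile normalization it turned for Atp6v0a1 (-0.13), Gm2a (-0.05), Hexa (-0.09), Lgmn (-0.26) and Man2b1 (-0.02), and by median ratio scaling for Gm2a (-0.01) and Tfeb (-0.03). Without the trend, and the same under the replicate block, it turned for Atp6v0b (-0.14), Atp6v0c (-0.17), Atp6v0d2 (0.16), Atp6v1g1 (-0.11), Atp6v1g2 (-0.03), Hexa (-0.10), Lgmn (-0.03), Tpp1 (0.03), Tfeb (-0.34), Cd68 (-0.09), Mcoln1 (-0.08), Scarb2 (0.16), Tmem192 (-0.13) and Rnasek (-0.03). The sign also turned without the trend for Gnptg (-0.13) and Nagpa (-0.05). By median length it turned for Atp6v0a2 (0.02), Atp6v0b (-0.01), Atp6v0c (-0.09), Atp6v0d2 (0.12), Atp6v1b2 (0.10), Atp6v1g2 (-0.12), Gaa (-0.30), Lipa (0.10), Manba (0.05), Ppt1 (-0.04), Tpp1 (0.17), Tfeb (-0.49), Mcoln1 (-0.13) and Scarb2 (0.25). With a sample left out, Atp6v0d2 ran from -0.02 to 0.01, Atp6v1b2 from -0.03 to 0.00053 and Tfeb from -0.07 to 0.06, all past the threshold in none. Without the trend, the difference in share (percentage points, Gsdmd-/- minus WT) turned to 1.43 for Atp6v0d2 and -1.43 for Atp6v0d1, and moved to 2.17 for Tcirg1, -1.64 for Atp6v0a1 and -0.527 for Atp6v0a2.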
